A study of Mus musculus with 2 samples.

Results

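The 10 genes described here encode transcription factors and cofactors that are known to act in inhibitory neurons of the brainstem: Gata2, Gata3, Tal1, Tal2, Sox14, Zfpm1, Lhx1, Lhx5, Tfap2b and Skor2. They were taken by gene symbol from the 55416 genes of the deposited matrices, and all 10 were found once each. Nuclei from frozen whole fetal mouse brain were profiled by single-nucleus RNA-seq, with 1 library labelled wildtype and 1 labelled Cav1 knockout (KO), a genotype that lacks the gene for caveolin 1. The strain, the embryonic day and the number of fetuses behind each library are not given in the sources used here. The Cav1 transcript did not separate the libraries, at 71 UMIs (unique molecular identifiers, each marking 1 captured RNA molecule) against 80 UMIs, so each library is named here by its label: wildtype-labelled or knockout-labelled.

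A level is given in CPM, the UMIs of a gene per 1000000 UMIs of the same nuclei, and Cav1 stood at 4.13 and 4.02 CPM. Nuclei with at least 500 detected genes and at most 5% mitochondrial UMIs were kept. That left 6686 nuclei with 17205381 UMIs in the wildtype-labelled library and 6680 nuclei with 19878903 UMIs in the knockout-labelled library, with medians of 2133 and 2366 UMIs a nucleus. The deposited barcode lists shared 43 barcodes, 10 of them among the kept nuclei. No marker of the fixed cell type lists was at 0 in either library, but 6 of 11 Hox genes (Hoxa2, Hoxa3, Hoxa4, Hoxb2, Hoxb5 and Hoxd3), which mark the hindbrain, were at 0 in the wildtype-labelled library. The Hox genes summed to 0.523 CPM there and to 25.8 CPM in the knockout-labelled library. With 1 library per genotype there is no replicate error and no test. The 95% intervals are exact Poisson intervals for UMIs, exact Clopper-Pearson intervals for shares and exact conditional binomial intervals for ratios, and they cover counting error only.

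In the developing midbrain and neighbouring regions, precursors of inhibitory neurons switch on a small set of selector genes as they leave the cell cycle, and these genes are known to direct the neurons towards GABA as transmitter. Gata2 and Gata3 are zinc-finger proteins that bind GATA motifs, and Tal1 and Tal2 are basic helix-loop-helix proteins that bind E-boxes with partner proteins. Both families are also known from blood and blood vessel formation. The GABA phenotype itself is carried by Gad1 and Gad2, the enzymes that make GABA, and by Slc32a1, which loads it into synaptic vesicles; these are called the GABA genes below.

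Promoter windows of Tal1, Gata3, Gata2 and Sox14 are shown as examples, because GATA and Tal proteins bind the motifs searched. Other members found in the same nuclei as these, such as Lhx1, are not shown. The sequences are RefSeq windows on build GRCm38.p6 from 250 bases before to 50 after the annotated start. Windows of 8 of the 10 genes were used, 10 in all, and none of Lhx5 or Skor2 was used. Capitals mark GATA on either strand (read as TATC on the other) and the E-box CANNTG, which is its own reverse complement. In Tal1 the GATA matches on the 2 strands overlap within GATATC.
Tal1 promoter, chr4:115056176-115056475, plus strand: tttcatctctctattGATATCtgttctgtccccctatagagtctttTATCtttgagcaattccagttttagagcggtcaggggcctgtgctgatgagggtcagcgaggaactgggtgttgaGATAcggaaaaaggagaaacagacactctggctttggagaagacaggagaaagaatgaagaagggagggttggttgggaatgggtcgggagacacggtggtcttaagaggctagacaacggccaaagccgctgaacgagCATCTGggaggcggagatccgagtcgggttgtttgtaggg
Gata3 promoter, chr2:9878551-9878850, minus strand: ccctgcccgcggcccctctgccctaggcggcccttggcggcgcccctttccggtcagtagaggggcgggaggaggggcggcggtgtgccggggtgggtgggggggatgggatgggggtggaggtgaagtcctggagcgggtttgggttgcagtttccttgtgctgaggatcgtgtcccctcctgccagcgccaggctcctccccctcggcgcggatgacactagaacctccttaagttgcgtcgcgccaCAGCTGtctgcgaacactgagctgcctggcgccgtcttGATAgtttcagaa
Gata2 promoter, chr6:88198414-88198713, plus strand: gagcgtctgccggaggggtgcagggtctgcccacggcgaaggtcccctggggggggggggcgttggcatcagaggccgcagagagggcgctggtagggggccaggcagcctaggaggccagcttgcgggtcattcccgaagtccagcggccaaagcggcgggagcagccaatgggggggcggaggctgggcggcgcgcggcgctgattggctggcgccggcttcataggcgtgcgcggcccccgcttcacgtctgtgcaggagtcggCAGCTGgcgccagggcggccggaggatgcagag
Sox14 promoter, chr9:99876121-99876420, minus strand: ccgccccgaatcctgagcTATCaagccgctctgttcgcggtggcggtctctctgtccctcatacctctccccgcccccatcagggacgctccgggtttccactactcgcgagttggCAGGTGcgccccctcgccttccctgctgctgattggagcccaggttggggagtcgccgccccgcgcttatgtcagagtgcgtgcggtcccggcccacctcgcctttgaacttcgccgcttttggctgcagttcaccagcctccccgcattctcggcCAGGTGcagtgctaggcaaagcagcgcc
The window of Tal1 held 4 GATA matches and 1 E-box, that of Gata3 held 1 of each, that of Gata2 held 1 E-box and no GATA, and that of Sox14 held 1 GATA and 2 E-boxes. Tal1 and Gata2 each have another window among the 10, and neither motif was found in it. Of the other windows not shown, those of Lhx1 and Zfpm1 held neither motif, that of Tal2 held 1 E-box and that of Tfap2b held 1 of each. Over the 10 windows, 4 held GATA and 6 held CANNTG, and 4 held both (Gata3, Sox14, Tal1 and Tfap2b). Over all 32851 RefSeq windows of this length, 57.9% held GATA and 72.3% held CANNTG, so neither share among the 10 windows was above that of promoters at large. A match describes letters in a window and not a bound site.

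Gata3 (ENSMUSG00000015619, chromosome 2, 9861889 to 9894845 on GRCm39) was detected with 334 UMIs in 238 nuclei of the wildtype-labelled library and 389 UMIs in 255 nuclei of the knockout-labelled library. That is 19.4 CPM (17.4 to 21.6) in the first and 19.6 CPM (17.7 to 21.6) in the second, with the log2 ratio at 0.01 (-0.20 to 0.23). Gata2 (ENSMUSG00000015053, chromosome 6, 88170559 to 88184018) was far sparser, with 33 UMIs in 31 nuclei and 73 UMIs in 62 nuclei. Its level was 1.92 CPM (1.32 to 2.69) against 3.67 CPM (2.88 to 4.62). The Gata3 intervals overlap almost fully, and those of Gata2 do not. Reads of Gata3 could not be separated from overlapping transcripts on the other strand, Gata3os (25 and 26 UMIs) and Gm13256 (25 and 38 UMIs), because the sources used here do not say whether counting used the strand.

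Tal1 (ENSMUSG00000028717, chromosome 4, 114913623 to 114928952) gave 169 UMIs where the label is wildtype and 166 where it is knockout, or 9.82 CPM (8.40 to 11.4) and 8.35 CPM (7.13 to 9.72). Tal2 (ENSMUSG00000028417, chromosome 4, 53779467 to 53795809), its close relative, gave 44 and 52 UMIs, or 2.56 CPM (1.86 to 3.43) and 2.62 CPM (1.95 to 3.43). For both genes the intervals of the libraries overlap. Sox14 (ENSMUSG00000053747, chromosome 9, 99756159 to 99758223), an SRY-box factor known from inhibitory neurons of the midbrain and diencephalon, gave 126 and 147 UMIs, or 7.32 and 7.39 CPM. Zfpm1 (ENSMUSG00000049577, chromosome 8, 123008805 to 123065024), the GATA cofactor also called FOG1, gave 50 and 68 UMIs, or 2.91 CPM (2.16 to 3.83) and 3.42 CPM (2.66 to 4.34). None of these 4 differed between the libraries beyond counting error.

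The LIM homeodomain factors Lhx1 (ENSMUSG00000018698, chromosome 11, 84408803 to 84416368) and Lhx5 (ENSMUSG00000029595, chromosome 5, 120569764 to 120579292) act in many classes of early neuron. Lhx1 gave 479 UMIs in 320 nuclei and 915 UMIs in 550 nuclei, or 27.8 CPM (25.4 to 30.4) against 46.0 CPM (43.1 to 49.1). Lhx5 gave 252 UMIs in 221 nuclei and 388 UMIs in 298 nuclei, or 14.6 CPM (12.9 to 16.6) against 19.5 CPM (17.6 to 21.6). Both were higher in the knockout-labelled library, with intervals that do not overlap. Each has a gene on the opposite strand that was also counted, Lhx1os with 362 and 585 UMIs and Lhx5as1 with 296 and 381 UMIs, and reads of the 2 strands may have been shared between them.

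Tfap2b (ENSMUSG00000025927, chromosome 1, 19279138 to 19309069), an AP-2 factor of inhibitory neurons and of other cell types, gave 1536 UMIs in 602 nuclei and 1413 UMIs in 582 nuclei. Its level was 89.3 CPM (84.9 to 93.9) against 71.1 CPM (67.4 to 74.9), so Tfap2b was the 1 factor lower in the knockout-labelled library beyond counting error. Skor2 (ENSMUSG00000091519), a corepressor known from Purkinje cell precursors, gave 3 UMIs in 2 nuclei against 66 UMIs in 42 nuclei, or 0.174 CPM (0.0360 to 0.510) against 3.32 CPM (2.57 to 4.22). Single nuclei held few molecules of any member, with a highest count of 18 UMIs (Tfap2b, knockout-labelled) and a mean of 1.53 UMIs per nucleus with a UMI for Gata3 and 1.66 for Lhx1 in that library.

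**Figure D1:**
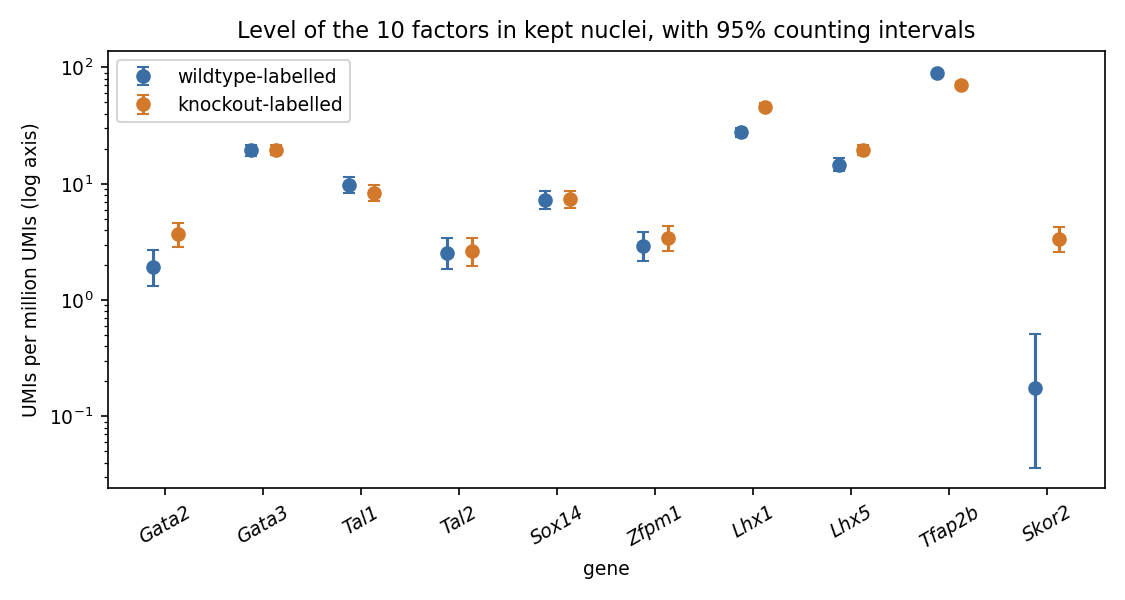
The level of each gene in the kept nuclei of the wildtype-labelled (blue) and knockout-labelled (orange) library, in CPM on a log axis; bars are 95% counting intervals. Skor2 stands lowest in the wildtype-labelled library at 0.174 CPM, and the pairs of points for Gata3, Tal2 and Sox14 nearly coincide.

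Nuclei of both libraries were clustered together on genes that did not include the 10 factors or the GABA genes, which gave 24 clusters, 19 of them named from fixed marker lists. Cluster 2, an other inhibitory neuron-like cluster led by Pax7, Dmbx1, Otx2os1 and Otx2 (228 and 153 nuclei), had the highest level of Gata2, Gata3, Tal1, Sox14, Lhx1 and Tfap2b in both libraries. Gata3 reached 215 CPM (177 to 259) and 178 CPM (139 to 225) there, and the next highest were cluster 6 at 43.9 CPM (35.2 to 54.2) in the wildtype-labelled and cluster 7 at 39.8 CPM (30.8 to 50.5) in the knockout-labelled library. Its UMIs lay in 36.4% and 32.7% of the nuclei of cluster 2. Sox14 was at 89.6 CPM (65.8 to 119) and 141 CPM (106 to 183) in cluster 2, which held 37.3% and 38.1% of all its UMIs. Tal2 was at 19.1 CPM (9.14 to 35.0) and 30.1 CPM (15.6 to 52.7) there, from 10 and 12 UMIs.

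Free RNA gives UMIs in nuclei that do not express a gene, so the cortical excitatory neuron-like clusters 4, 9 and 13, which should lack these factors, were read as a background level. They held 1175 and 821 nuclei with medians of 2506 and 2698 UMIs, against 2148 and 2417 UMIs in cluster 2. Gata3 was found in 1.36% (0.780 to 2.20) and 0.609% (0.198 to 1.42) of these cortical nuclei, Sox14 in 0.681% and 0.244%, and Tal1 in 0.766% and 0.853%. These shares are well under those of cluster 2 for Sox14 (16.2% and 27.5%) and Tal1 (16.7% and 18.3%). Tfap2b, the most abundant member, was also found in 5.02% (3.84 to 6.43) and 4.51% (3.19 to 6.16) of the cortical nuclei. The intervals of its share over all nuclei were 8.33% to 9.72% and 8.05% to 9.41%, above the cortical ones. Lhx1 was found in 1.45% and 2.68% of the cortical nuclei against 4.79% and 8.23% of all nuclei. For Lhx5 it was 1.45% and 0.853% against 3.31% and 4.46%. Shares over all nuclei were not corrected for this background. The sparsest members also came close to it. Gata2 was found in 0.464% and 0.928% of all nuclei and in 0.255% (0.0527 to 0.744) and 0.487% (0.133 to 1.24) of the cortical nuclei, and Tal2 in 0.643% and 0.614% against 0.170% (0.0206 to 0.614) and 0.244% (0.0295 to 0.877), with overlapping intervals. In cluster 2 their shares were above the cortical intervals, at 3.95% (1.82 to 7.36) and 7.19% (3.64 to 12.5) for Gata2 and 4.39% (2.12 to 7.92) and 4.58% (1.86 to 9.20) for Tal2. Zfpm1 was found in 0.733% (0.543 to 0.968) and 0.973% (0.752 to 1.24) of all nuclei and in 0.936% (0.468 to 1.67) and 0.487% (0.133 to 1.24) of the cortical nuclei. Its share over all nuclei could not be told apart from the cortical share at this depth, and in cluster 2 it was 1.75% (0.480 to 4.43) and 1.96% (0.406 to 5.62), so its order of clusters is not read. Skor2 was found in 0 of the 1175 and 821 cortical nuclei, which at 3 counts allows a share of nuclei with a UMI of up to 0.255% and 0.365%.

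Several members were also high outside inhibitory neurons. Tal1 was at 54.0 CPM (29.5 to 90.7) and 60.6 CPM (38.0 to 91.8) in the endothelial cell-like cluster 20, and Gata2 was at 15.4 CPM (4.21 to 39.5) and 22.0 CPM (9.52 to 43.4), in each case second to cluster 2 with overlapping intervals. Lhx1 was at 191 CPM (124 to 282) and 221 CPM (159 to 298) in the Cajal-Retzius cell-like cluster 17, close to its 225 CPM (186 to 269) and 226 CPM (182 to 278) in cluster 2. Lhx5 was at 115 CPM (64.3 to 189) and 142 CPM (93.5 to 207) in cluster 17, against 131 CPM and 113 CPM (82.4 to 151) in cluster 2. For both LIM factors the order of these 2 clusters is within counting error. Tfap2b was second highest in the other excitatory neuron-like cluster 5, led by Tfap2d and Pou4f1, at 371 CPM (334 to 411) and 266 CPM (237 to 298), against 802 CPM (727 to 883) and 713 CPM (633 to 801) in cluster 2. It was also at 134 CPM (98.0 to 179) and 95.6 CPM in the fibroblast-like cluster 18.

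A larger cluster, number 6, stayed unnamed because no class had 3 raised markers in it, and it is described by its leading genes Pax2, Snhg11, Cdh9 and Cdh18. It held 411 nuclei (6.15%) of the wildtype-labelled and 836 nuclei (12.5%) of the knockout-labelled library, with high medians of 3994 and 4449 UMIs. In the knockout-labelled library it carried 80.3% of the Skor2 UMIs, 45.5% of the Lhx1 UMIs, 42.9% of the Gata3 UMIs and 42.5% of the Lhx5 UMIs. In the wildtype-labelled library it carried 25.9% of the Lhx1, 26.0% of the Gata3 and 15.9% of the Lhx5 UMIs. Cluster 7, named other inhibitory neuron-like from its markers but led by Ecel1, Sim1, Lhx8 and Isl1, had Gata3 at 33.8 and 39.8 CPM and Lhx1 at 62.8 and 67.7 CPM.

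**Figure D2:**
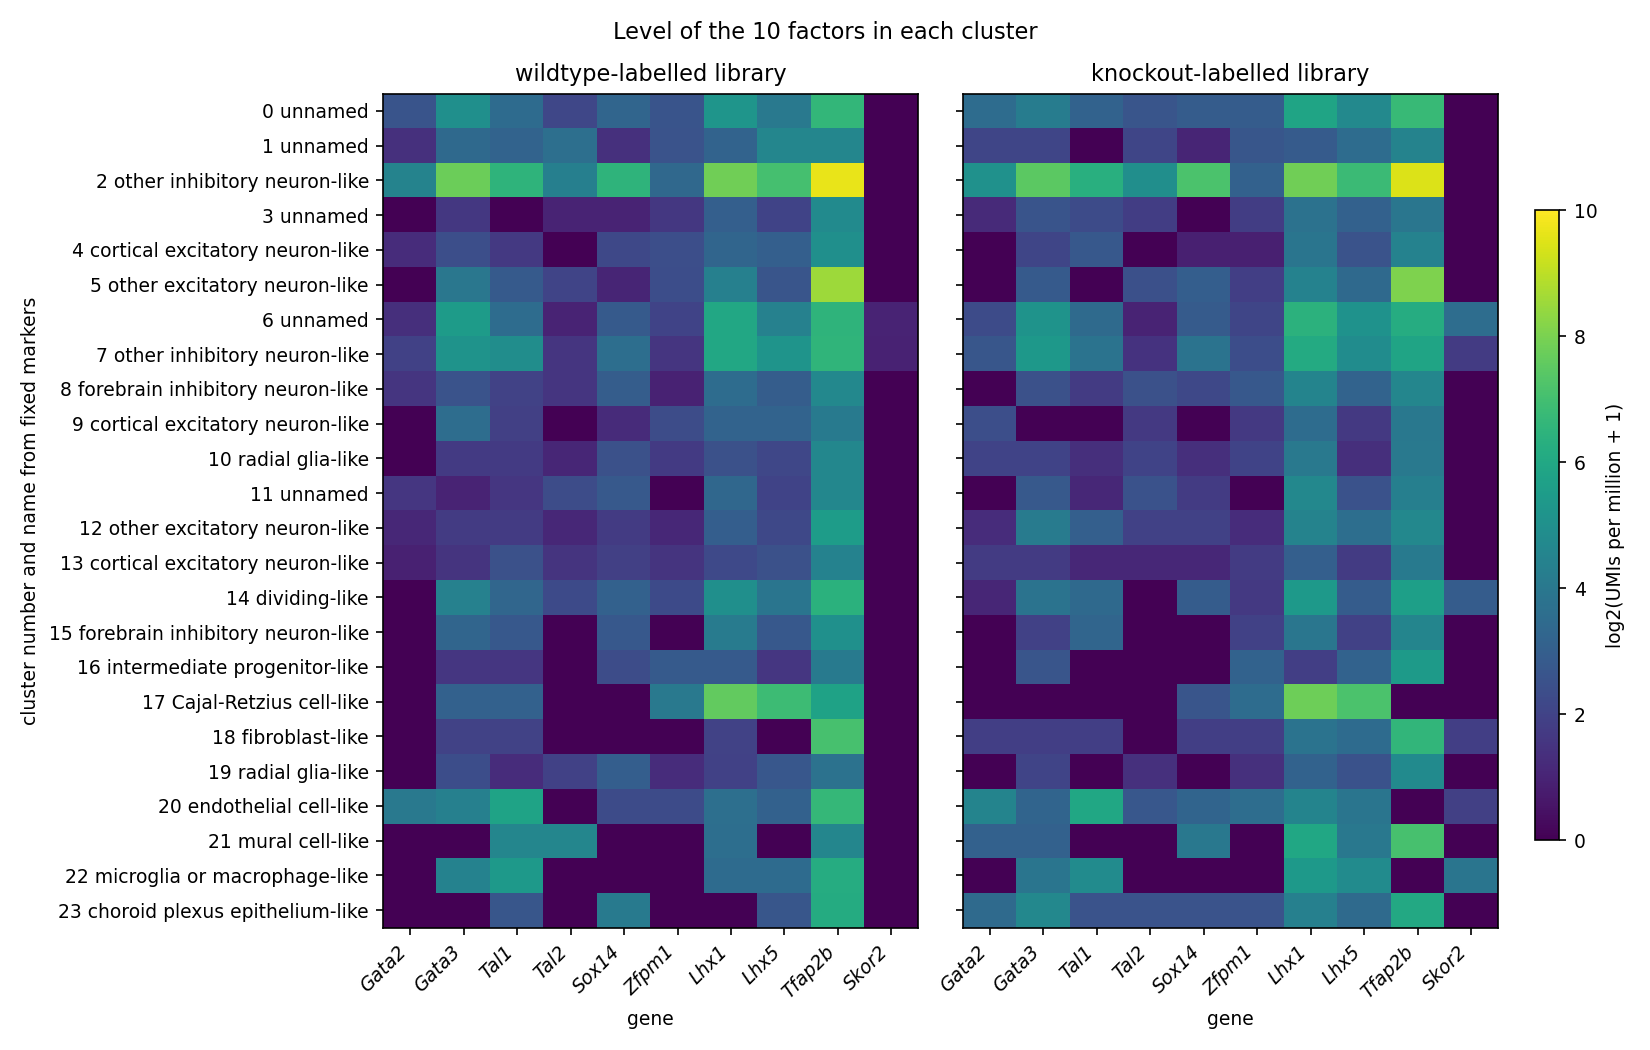
Level of the 10 factors in each of the 24 clusters, by library, as log2(CPM + 1) in colour. The row of cluster 2 is brightest for Gata3, Tal1, Sox14 and Tfap2b in both panels, cluster 17 is bright for Lhx1 and Lhx5, and Skor2 is at 10.8 CPM in cluster 6 of the knockout-labelled panel.

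The genes whose level over clusters was most like that of each factor included other members. Likeness was Pearson's r of log2(CPM + 10) over the 19 clusters with at least 50 nuclei in each library, given as a description since the points share libraries and depth. Clusters 17, 20, 21, 22 and 23 were left out, among them clusters 17 and 20, where Lhx1 (191 CPM) and Tal1 (54.0 CPM) were high in the wildtype-labelled library and Gata3 was at 7.65 and 19.3 CPM. For Tal1 the likest gene was Gata3 (r = 0.94 in the wildtype-labelled library, 0.92 in the other). For Gata3 they were Lhx5 (0.93 and 0.94) and Lhx1 (0.97 and 0.92). For Sox14 the first was Asic4, an ion channel subunit gene (0.89 and 0.96), and Asic4 also stood first for Gata2 (0.88 and 0.90). For Tfap2b the first was its relative Tfap2a (0.86 and 0.93). For Zfpm1 no gene passed 0.56 in the library with the lower r. Between the libraries, the r of a factor with itself was 0.60 for Zfpm1, 0.95 for Tfap2b and 0.94 for Lhx1.

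Whether the factors occurred in the same nuclei was asked by comparing the number of nuclei with UMIs of both genes with the number expected from the 2 shares. That number is taken over all kept nuclei of a library. Genes of the same cluster can exceed it without meeting more often within the cluster, and ratios within clusters were not computed. Gata3 and Tal1 were found together in 39 nuclei of the wildtype-labelled library against 5.27 expected, a ratio of 7.40 (5.26 to 10.1), and in 41 against 5.42 in the knockout-labelled library, a ratio of 7.56 (5.43 to 10.3). Thus 26.4% and 28.9% of Tal1 nuclei held a Gata3 UMI. Gata3 and Sox14 met in 23 and 38 nuclei, with ratios of 5.93 (3.76 to 8.89) and 8.44 (5.97 to 11.6). Gata2 and Tal1 met in 8 and 11 nuclei, at 11.7 (5.03 to 23.0) and 8.35 (4.17 to 14.9) times the expected number. Tal1 and Tal2 met in 8 and 6 nuclei, at 8.40 (3.63 to 16.6) and 6.88 (2.53 to 15.0).

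The LIM factors met each other in 53 and 94 nuclei, with ratios of 5.01 and 3.83. Gata3 met Lhx1 in 57 nuclei against 11.4 expected and in 80 nuclei against 21.0 expected. Tfap2b, which is also found in excitatory and non-neuronal clusters, gave lower ratios, such as 3.41 (2.67 to 4.28) and 3.42 (2.70 to 4.28) with Gata3 and 2.08 (1.59 to 2.68) and 1.73 (1.38 to 2.15) with Lhx1. For Zfpm1 and Tfap2b the ratios were 1.59 (0.638 to 3.27) and 1.06 (0.389 to 2.31). Zfpm1 met Gata3 at 4.03 (1.93 to 7.41) in the knockout-labelled library, where 2.48 nuclei were expected. It met Tal1 at 4.61, with an interval above 1, in the wildtype-labelled one, where 1.08 were expected. Both ratios were computed only because at least 5 nuclei were seen, so they give no contrast with Tfap2b. Skor2 in the knockout-labelled library met Lhx1 in 24 of its 42 nuclei (57.1%), a ratio of 6.94 (4.45 to 10.3). Ratios were computed for 58 pairs with at least 5 nuclei observed or expected. In 28 of them at least 5 nuclei were expected, and all 28 ratios were above 1, of which 26 had an interval above 1; the others were Zfpm1 with Lhx1 (1.87, 0.896 to 3.44) and Zfpm1 with Tfap2b, both knockout-labelled. The other 30 pairs entered only because at least 5 nuclei were seen, so their ratios are above 1 by construction. Among them are Gata3 with Sox14, Gata2 with Tal1, Tal1 with Tal2, Skor2 with Lhx1, and Zfpm1 with Gata3 and with Tal1. Deeper nuclei raise the chance of finding any 2 genes together. With each nucleus thinned to 1000 UMIs, the Gata3 and Tal1 ratio was 8.73 from 8 nuclei and 5.82 from 4 nuclei, 25 of the 58 pairs had an interval above 1, and 11 pairs, among them Tal1 with Tal2 in the wildtype-labelled library, had no nucleus with both genes.

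**Figure D3:**
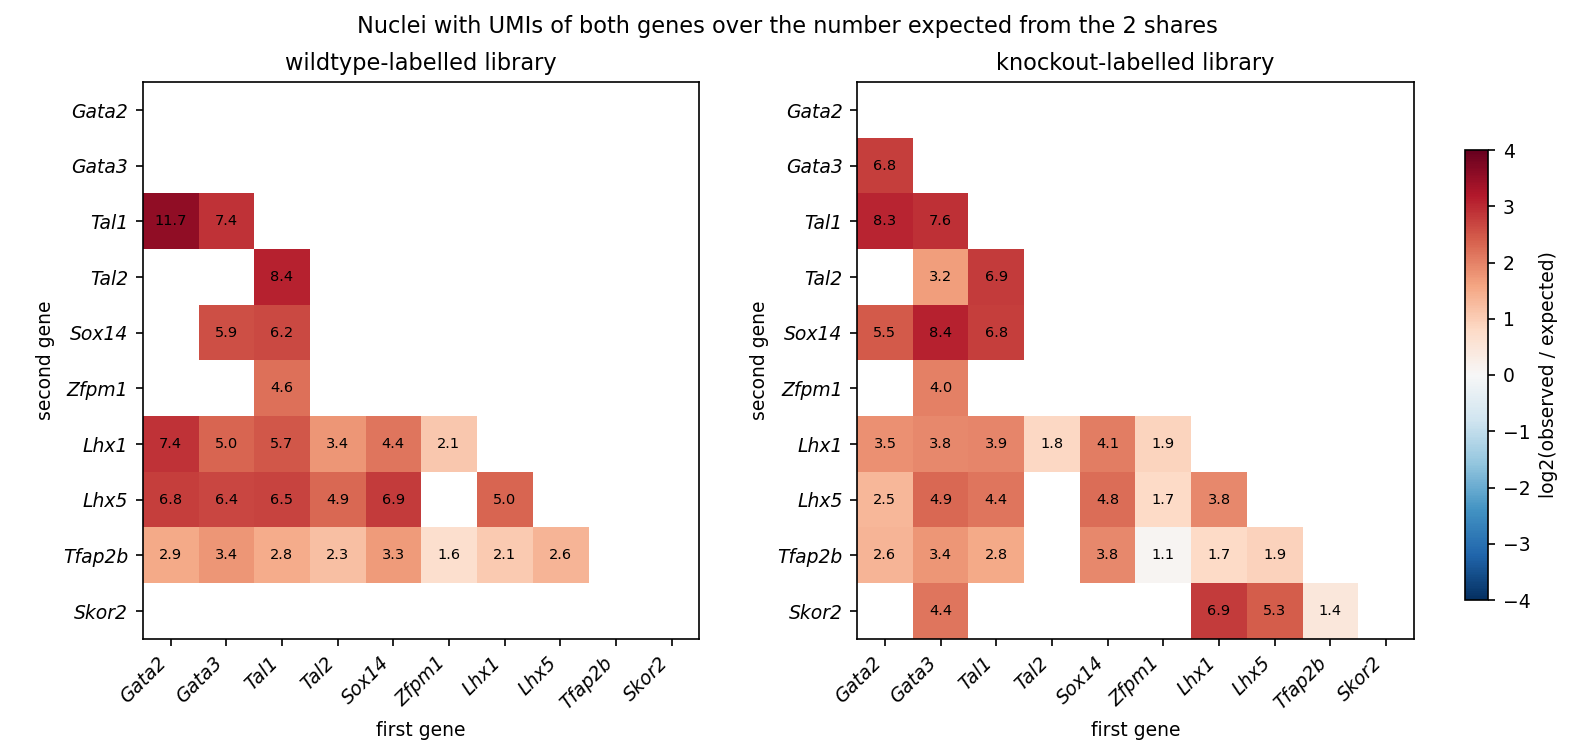
Nuclei with UMIs of both genes divided by the number expected from the 2 shares, for pairs with at least 5 nuclei observed or expected, by library; colour is the log2 of the printed ratio and blank squares were not computed. Gata3 with Tal1 stands at 7.40 and 7.56, and the squares of Tfap2b are paler, between 1.06 and 3.79.

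Co-detection with the GABA genes differed among the members over all UMIs, but their order was not kept at a fixed depth, as given below. A UMI of Gad1, Gad2 or Slc32a1 was present in 32.3% (31.2 to 33.5) of all nuclei of the wildtype-labelled library and 33.0% (31.9 to 34.1) of the knockout-labelled library. Among nuclei with a Gata3 UMI the share was 74.4% (68.3 to 79.8) and 72.9% (67.0 to 78.3), from 177 of 238 and 186 of 255 nuclei. For Sox14 it was 72.5% (63.1 to 80.6) and 78.0% (69.4 to 85.1), for Tal1 68.2% (60.1 to 75.6) and 73.9% (65.9 to 80.9), and for Gata2 71.0% (52.0 to 85.8) and 64.5% (51.3 to 76.3). These 4 factors thus had shares of more than 60% in both libraries, with overlapping intervals between the libraries.

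The LIM factors followed, with 66.2% (60.8 to 71.4) and 59.1% (54.9 to 63.2) for Lhx1 and 57.5% (50.7 to 64.1) and 57.4% (51.6 to 63.1) for Lhx5. Their intervals overlap those of Gata2. Tal2 stood at 51.2% (35.5 to 66.7) and 56.1% (39.7 to 71.5), and Skor2 at 61.9% (45.6 to 76.4) in the knockout-labelled library. Tfap2b was lower, at 41.4% (37.4 to 45.4) and 43.5% (39.4 to 47.6), and 25.9% and 26.6% of its nuclei held a UMI of Slc17a6, the vesicular glutamate transporter of most brainstem excitatory neurons, against 17.6% and 19.9% of all nuclei. Zfpm1 was at 32.7% (19.9 to 47.5) and 46.2% (33.7 to 59.0), of which the first is the level of all nuclei. In cluster 2 the GABA share of Lhx1 nuclei was 89.6% and 89.1%, against 83.3% and 85.0% of all nuclei of the cluster. In the Cajal-Retzius cell-like cluster 17 it was 6.25% (1 of 16 nuclei) and 15.0% (3 of 20 nuclei), against 2 of 40 and 4 of 51 of all its nuclei. In the Tfap2d-led cluster 5, Tfap2b nuclei held a GABA gene UMI in 14.7% and 20.5%, against 14.9% and 12.0% of all nuclei of that cluster.

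Of the Gata3 nuclei of cluster 6, 97.8% (88.5 to 99.9) and 84.1% (74.8 to 91.0) held a GABA gene UMI, against 43.1% (38.2 to 48.0) and 49.9% (46.4 to 53.3) of all nuclei of the cluster. Most GABA-positive nuclei there held no Gata3 UMI (45 of 177 and 74 of 417 did), and other factors stood above the cluster too: Tal1 nuclei at 85.0% (62.1 to 96.8) and 87.2% (72.6 to 95.7), and Lhx1 nuclei at 73.0% and 72.3%. In cluster 2 the Gata3 nuclei were at 84.3% and 86.0%, beside all its nuclei at 83.3% and 85.0%, and the GABA genes are among the markers that named this cluster. Nuclei with a Gata3 UMI were deeper than average, with medians of 2880 and 3530 UMIs. With all nuclei thinned to 1000 UMIs, which left out 846 and 1111 shallower nuclei, the GABA share was 52.5% (42.3 to 62.5) and 44.8% (34.1 to 55.9) for Gata3, 52.3% and 58.1% for Sox14, 47.2% and 52.3% for Tal1, and 22.8% and 22.2% for all nuclei. At that depth Lhx1 was at 44.6% and 30.2% (23.9 to 37.0), Tfap2b at 29.6% and 27.7%, and Skor2 at 13.3% from 2 of 15 nuclei.

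**Figure D4:**
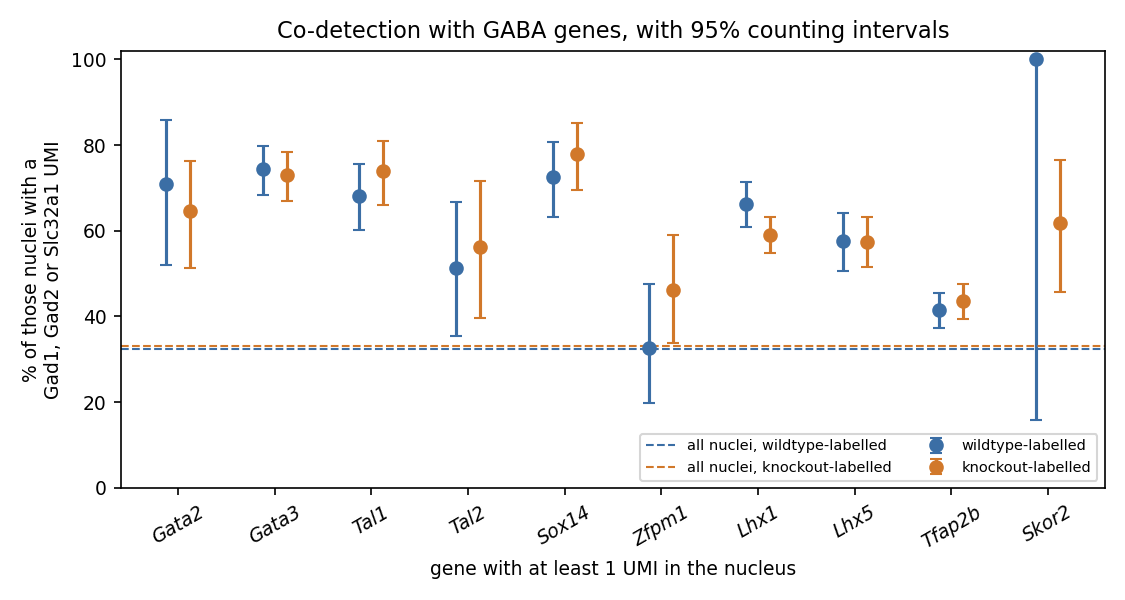
Share of the nuclei with a UMI of each factor that also held a UMI of Gad1, Gad2 or Slc32a1, by library with 95% counting intervals; dashed lines give the share over all nuclei, 32.3% and 33.0%. Gata2, Gata3, Tal1 and Sox14 lie above 60% in both libraries and Tfap2b at 41.4% and 43.5%; the wildtype-labelled point of Skor2 rests on 2 nuclei.

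Nuclei with UMIs of at least 2 of Gata2, Gata3 and Tal1, called Gata-Tal nuclei here, numbered 47 of 6686 (0.703%, 0.517 to 0.934) in the wildtype-labelled and 62 of 6680 (0.928%, 0.712 to 1.19) in the knockout-labelled library. The difference was 0.225 percentage points (-0.0908 to 0.545), which is within counting error. A GABA gene UMI was present in 41 of 47 (87.2%, 74.3 to 95.2) and 54 of 62 (87.1%, 76.1 to 94.3) of them. Slc17a6 was present in 8.51% and 19.4%, against 17.6% and 19.9% of all nuclei. These nuclei were deeper than average, with medians of 2986 and 4201 UMIs against 2133 and 2366. Thinned to 1000 UMIs, the GABA share was 63.6% (7 of 11 nuclei, 30.8 to 89.1) and 83.3% (5 of 6 nuclei, 35.9 to 99.6). The values that follow are over all UMIs. Otx2, a factor of the forebrain and midbrain, was found in 44.7% and 30.6% of Gata-Tal nuclei, against 6.51% and 7.13% of all nuclei. Lhx1 was found in 36.2% and 38.7%, Lhx5 in 29.8% and 29.0%, Sox14 in 12.8% and 12.9%, and Zfpm1 in 2.13% and 1.61% of them. By cluster, 16 and 17 of the Gata-Tal nuclei lay in cluster 2, 10 and 27 in cluster 6, 7 and 7 in cluster 7, and 4 and 3 in the endothelial cell-like cluster.

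Since Tal1 and Gata2 are also endothelial genes, the Gata-Tal nuclei with a GABA gene UMI were compared with the other nuclei with a GABA gene UMI both with and without the endothelial-, mural- and microglia-like clusters. With all clusters, 41 and 54 nuclei (227481 and 435263 UMIs) were compared with 2120 and 2149 nuclei, and the leading genes were endothelial: Flt1, a VEGF receptor, was 3.54 and 2.08 higher on the log2 scale, and the vessel genes Col4a2, Slc2a1 and Sparc were among the first 10. Of 2804 genes compared there, 1.96% were past 1.5-fold higher and 3.28% past 1.5-fold lower in both libraries. The summed level of 8 endothelial markers over all nuclei was 106 CPM where the label is wildtype and 164 CPM where it is knockout, with none of the 8 at 0. Without those clusters, 38 and 52 Gata-Tal nuclei (147869 and 417039 UMIs) were left. In the wildtype-labelled library the nuclei left out were thus few but held a large part of the UMIs of the group. They held all 21 of its Dlx6os1 UMIs, and its Erbb4 UMIs went from 228 to 53. The intervals take each UMI as independent, so they do not cover this weight of a few deep nuclei. The part of nuclei that hold RNA of more than 1 cell in these values was not tested.

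In that remainder, Pax7, a paired box factor of the dorsal midbrain, led the higher genes with 183 against 29.2 CPM (log2 ratio 2.64) and 79.1 against 24.7 CPM (1.68). Otx2 was at 291 against 59.7 CPM (2.28, 1.79 to 2.74) and 91.1 against 42.4 CPM (1.10, 0.58 to 1.59). Zfpm2, the FOG2 cofactor of GATA proteins, was at 1914 against 531 CPM (1.85, 1.67 to 2.02) and 1132 against 538 CPM (1.07, 0.93 to 1.21), while its relative Zfpm1 was barely detected. Epha10, Asic4 and Trpm3 were also among the first 10. The 10 lowest genes included the ribosomal protein genes Rps26 and Rpl7a, Atpif1, Dlx6os1 and Erbb4. Dlx6os1, a transcript of the Dlx5 and Dlx6 locus, had 0 UMIs against 501 CPM and 86.3 against 419 CPM, and Erbb4, a receptor of forebrain interneurons, was at 358 against 2549 CPM and 719 against 2083 CPM. Of 1740 genes compared, 1.90% were past 1.5-fold higher and 2.93% past 1.5-fold lower in both libraries. Pax7, Otx2 and Asic4 also lead cluster 2 as a whole, where 16 of 228 and 17 of 153 nuclei were Gata-Tal nuclei. The other GABA nuclei came from many clusters, among them the forebrain inhibitory neuron-like cluster 8. Gata-Tal nuclei were not compared with other nuclei of their own cluster, so these genes are not particular to them.

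Of the fixed list of 12 Gata and Tal cofactors, 6 were abundant enough to be compared without the vascular clusters. Zfpm2 was past 1.5-fold higher and Lmo3, a LIM-only protein, past 1.5-fold lower, at 67.6 against 167 CPM and 106 against 168 CPM. The E proteins Tcf4 and Tcf12, helix-loop-helix partners of Tal proteins, stayed within 1.5-fold, with log2 ratios of -0.52 and -0.22 for Tcf4 and -0.04 and -0.15 for Tcf12. Of 14 upstream factors, none was abundant enough.

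Between the libraries, 3 of the 10 factors were past 1.5-fold, all higher in the knockout-labelled library: Gata2, Lhx1 and Skor2. Over all 15528 genes with at least 100 UMIs, 2.72% were past 1.5-fold either way, 2.12% higher and 0.605% lower. Gata2 and Lhx1 are among the 8 factors with that many UMIs, whereas Skor2 and Tal2 fall short of it. At a minimum of 20 UMIs, which takes in Skor2, 9.26% of 21131 genes were past 1.5-fold. The log2 ratio was 0.94 (0.33 to 1.58) for Gata2, 0.73 (0.56 to 0.89) for Lhx1 and 4.25 (2.64 to 6.57) for Skor2, the last against 3 UMIs. Thinned to 1000 UMIs a nucleus, the Gata2 log2 ratio was 0.48 (-0.69 to 1.70) and the Lhx1 log2 ratio 0.53 (0.23 to 0.83), both under 1.5-fold, and at 2000 UMIs that of Gata2 was 0.04 (-0.99 to 1.07). Lhx5 was at 0.41 (0.18 to 0.65) and Tfap2b at -0.33 (-0.43 to -0.22), both within 1.5-fold, and the other 5 had intervals that include 0. The median over the 10 factors was 0.13, beside -0.01 over all genes.

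Much of the difference for Lhx1, Lhx5 and Skor2 came from cluster 6, whose share of nuclei also differed. Of the Lhx1 difference of 18.2 CPM, 13.7 CPM came from cluster 6, of the Skor2 difference of 3.15 CPM, 2.55 CPM did, and of the Gata2 difference of 1.75 CPM, 0.781 CPM did. For Lhx5 cluster 6 added 5.98 CPM and cluster 2 took away 1.75 CPM, for a total of 4.87 CPM. Within cluster 2 the level of Lhx1 was 225 and 226 CPM (log2 ratio 0.01, -0.40 to 0.42). Within cluster 6 it was 62.6 and 84.4 CPM (0.43, 0.14 to 0.73), Lhx5 was 20.2 and 33.5 CPM (0.73, 0.22 to 1.27), and Skor2 was 1.01 and 10.8 CPM (3.41, 1.49 to 6.50), from 2 and 53 UMIs. Without cluster 6 the Lhx1 ratio was 0.52 (0.32 to 0.72), under 1.5-fold, the Lhx5 ratio was 0.10 (-0.18 to 0.38), and 2 factors, Gata2 and Skor2, were past 1.5-fold beside 2.35% of genes. A larger share of nuclei and more RNA in each nucleus cannot be told apart in the summed levels, and with 1 library each, genotype and library cannot be told apart.

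Tfap2b went the other way. Levels in the knockout-labelled library were lower within cluster 5 (log2 ratio -0.48, -0.71 to -0.26), cluster 6 (-0.33, -0.59 to -0.06) and cluster 7 (-0.69, -1.11 to -0.27), and in cluster 2 the ratio was -0.17 (-0.39 to 0.05). Cluster 2, which had fewer nuclei in the knockout-labelled library, took 10.2 CPM from its total, and cluster 6 added 7.40 CPM. Gata3 within clusters 2, 6 and 7 had ratios of -0.27 (-0.72 to 0.17), -0.37 (-0.76 to 0.02) and 0.24 (-0.37 to 0.86), none beyond counting error. Tal1 in cluster 7 was at 29.1 CPM against 13.1 CPM (-1.15, -2.01 to -0.32), from 31 and 22 UMIs. Sox14 in cluster 2 was at 89.6 against 141 CPM (0.65, 0.07 to 1.24).

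**Figure D5:**
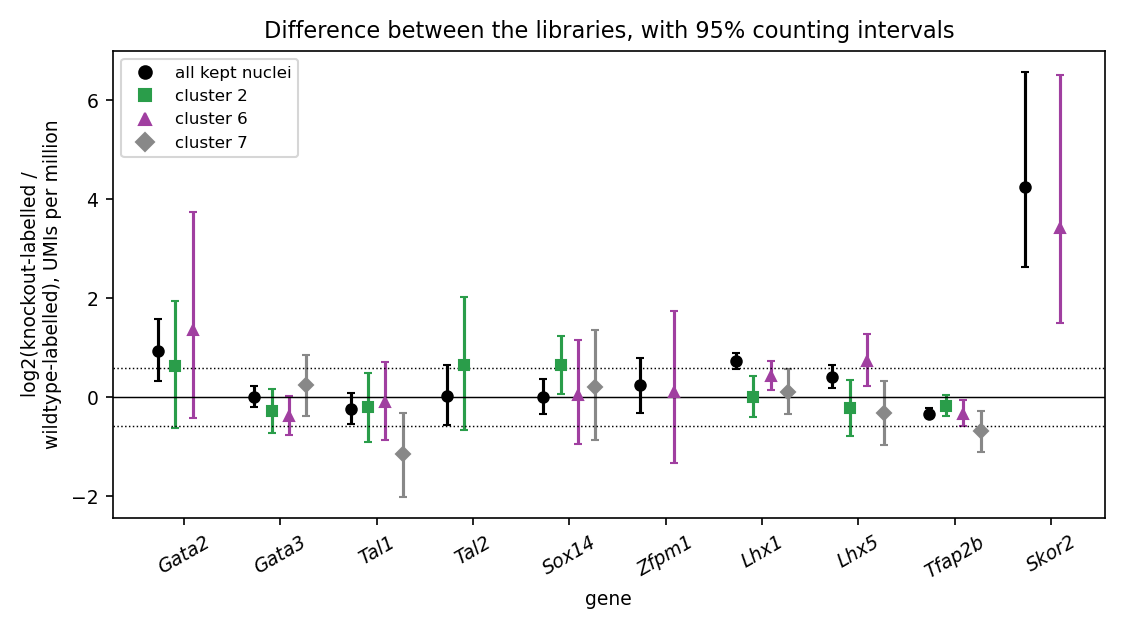
Log2 ratio of the knockout-labelled to the wildtype-labelled level of each factor over all kept nuclei (black) and within clusters 2, 6 and 7, where the libraries held at least 20 UMIs together and 1 of them at least 10; bars are 95% counting intervals and dotted lines mark 1.5-fold. Lhx1 is at 0.73 over all nuclei and at 0.01 within cluster 2, Lhx5 at 0.41 and -0.22, and Skor2 is above 3 in both places where it could be measured.

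Genes that mark position along the brain moved with the same library. Of 17 position genes, 6 had at least 100 UMIs and 4 of those, En1, En2, Pax5 and Hoxb3, were past 1.5-fold higher in the knockout-labelled library, with a median log2 ratio of 1.25. The midbrain-hindbrain genes En1, En2, Pax5 and Pax8 summed to 15.8 and 39.1 CPM. Otx2 was at 41.6 and 38.9 CPM. The part of this difference in the levels of Lhx1, Lhx5, Gata2 and Skor2 was not tested. In the knockout-labelled library a Hox UMI was found in 4.97% of all nuclei, in 19.0% of Skor2 nuclei (8 of 42), in 9.27% of Lhx1 nuclei and in 6.67% of Gata3 nuclei. In the wildtype-labelled library a Hox UMI was found in 5 nuclei in all and in no Lhx1 or Gata3 nucleus.

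Of 20 genes listed as other inhibitory factors of brainstem and cerebellum, a list not limited to inhibitory neurons, 17 had at least 100 UMIs. Of these, 8 were past 1.5-fold higher in the knockout-labelled library: En1, En2, Pax2, Pax5, Tfap2a, Otp, Lmx1b and Nkx2-1. None was lower. En1, En2 and Pax5 were also counted among the position genes above, so the counts overlap. Pax2, a factor of dorsal hindbrain and cerebellar inhibitory neurons, had 13 against 241 UMIs (0.756 and 12.1 CPM), Otp had 21 against 130 UMIs, and Pax7, the leading gene of cluster 2, had 302 against 301 UMIs. Of 6 genes of the GABA and glycine phenotype, Slc6a5, the glycine transporter of inhibitory terminals, was past 1.5-fold, with 7 against 100 UMIs. Gad1 was at 98.1 and 95.5 CPM, Gad2 at 220 and 197 CPM and Slc32a1 at 23.4 and 31.9 CPM. None of the 11 cofactors, the 5 upstream factors and the 8 forebrain inhibitory factors with at least 100 UMIs was past 1.5-fold.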

How the data were processed

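The series holds single-nucleus RNA-seq of 2 libraries, 1 per genotype. The authors deposited matrices of unnormalised UMI counts (genes by barcodes); per the file headers Cell Ranger 6.1.1 wrote them, while the submitters' processing notes name Cell Ranger 3.0.1, STAR and GRCm39. The annotation, and whether introns or strand were used, is not given in the sources used here. Gene positions are from GENCODE M39 on GRCm39 and promoter windows from RefSeq on GRCm38.p6. The members and gene lists were chosen with earlier results of these data known.

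Nuclei with at least 500 genes and at most 5% mitochondrial UMIs were kept, with no doublets removed. A gene counted as present at 1 UMI. Counts were summed per library, as 1 library per genotype allows no test, and 1.5-fold was used to call a difference. The background of all genes and the gene lists were restricted to genes with at least 100 UMIs; the 10 factors were all read. Clusters came from scanpy 1.11.5 on up to 2000 variable genes per library without the 10 factors, the GABA genes, Cav1, mitochondrial genes and a few sex-linked genes, with 30 components, 15 neighbours and Leiden resolution 1. A cluster took the class with most markers, at least 3, raised 2-fold over the other nuclei and 1.5-fold in each library, the dividing class only where no other qualified. It stayed unnamed on a tie or where another class had more markers among its 10 leading genes; the GABA genes are markers of 1 class. The Gata-Tal comparison names the 10 highest and 10 lowest genes by the ratio nearer to 0 of the 2 libraries, with at least 20 UMIs. The likeness rule names 3 genes per factor. Scripts were tested on simulated counts. Alternatives were other gene and mitochondrial limits, removal of likely doublets, thinning to 1000 or 2000 UMIs, another scaling, stricter definitions of presence, other Leiden resolutions, and, chosen after seeing the data, leaving out clusters.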

Additional observations from a re-analysis of the deposited data

Results flagged for a closer look

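Barcodes left out by the gene and mitochondrial limits held 462 UMIs of the 10 factors where the label is wildtype and 711 where it is knockout, which is signal outside the comparisons. The barcodes left out numbered 3077 and 4131, and 9 of the 10 factors were over the limit of 3 counts in each.

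Tfap2b differed in direction between clusters, and this difference between clusters was not tested. Its log2 ratio of the knockout-labelled to the wildtype-labelled library was -0.48 in cluster 5, -0.33 in cluster 6, -0.69 in cluster 7, -0.89 in the other excitatory neuron-like cluster 12 and -0.78 in the dividing-like cluster 14. In the endothelial cell-like cluster 20 it was at least 12.1-fold lower (26 against 0 UMIs, with 3 counts as the floor; the interval of the log2 ratio reaches up to -3.20). It was 1.38 in the intermediate progenitor-like cluster 16 (8 against 16 UMIs) and 2.57 in the mural cell-like cluster 21 (2 against 18 UMIs in 5 nuclei). Each of these values has an interval that leaves out 0. The intervals take each UMI as independent, and in a small cluster a few nuclei can hold most UMIs. Cluster 20 held 48 and 64 nuclei.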

How the results depend on the processing

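No paired analysis was possible because each genotype has 1 library. The 3 factors past 1.5-fold remained 3 under 8 of 10 alternatives, though with nuclei thinned to 2000 UMIs Zfpm1 was among them and Gata2 was not (its log2 ratio was 0.04). Thinned to 1000 UMIs the count was 1 (Skor2), and without cluster 6 it was 2. The number of all genes past 1.5-fold was 423, against 245 after thinning to 1000 UMIs and 1957 (9.26% of 21131) with a minimum of 20 UMIs. The share of Gata-Tal nuclei with a GABA gene UMI was 63.6% (30.8 to 89.1) in the wildtype-labelled library after thinning to 1000 UMIs, from 7 of 11 nuclei. It was 100% in both libraries when 2 UMIs of each factor were asked for (6 and 5 nuclei), and 55.3% and 54.8% when 2 GABA genes were asked for. The difference in the share of Gata-Tal nuclei was -0.302 percentage points after thinning to 2000 UMIs, from 24 and 14 nuclei. Of 89 log2 ratios of single factors under the alternatives, 84 stayed within the main counting interval, and of 492 co-detection ratios 436 did. Of 206 shares of nuclei with a GABA gene UMI, taken over the nuclei of a factor or over Gata-Tal nuclei, 79 moved beyond that interval. Of 141 shares of UMIs in the leading cluster 68 did. Scrublet marked 0 nuclei in either library, so the highest 8% of its scores were removed as the alternative, and doublets are otherwise untreated. The cause of each change was not tested. Gata2, Tal2, Zfpm1 and Skor2 had the fewest UMIs, between 3 and 73 a library, which limits them.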
